A study of Mus musculus with 6 samples.

Results

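Claudins, cadherins and protocadherins, with occludin and the ZO scaffold proteins, were followed as 127 of the 23845 genes of the count table. They were taken by symbol alone, as every numbered claudin (Cldn), cadherin (Cdh), cadherin-related gene (Cdhr) and protocadherin (Pcdh), together with Ocln and the ZO scaffold genes (Tjp). By family they comprised 23 claudins, 4 occludin and ZO genes, 23 cadherins, 4 cadherin-related genes, 12 non-clustered protocadherins and 61 clustered protocadherins. Of the 127 genes, 13 had no count in any library and 62 passed the filter on low counts and were tested. The 6 RNA libraries came from epithelial cells of the mouse intestine, 2 in each of 3 groups, and address how the number of Neurog3 alleles bears on enteroendocrine progenitors. Neurog3 encodes the transcription factor that commits gut progenitors to the enteroendocrine fate. EYFP cells carried the genotype Neurog3+/+EYFP on a strain labelled as mixed C57BL6 and CD1, with 2 alleles. EGFP cells carried Neurog3+/-EGFP on C57BL6, with 1 allele. The count columns used for EYFP cells carry both EGFP and addon in their names, and were matched by addon, which stands in the titles of the EYFP libraries alone. WT cells were wild-type epithelium of C57BL6 mice, and their titles point to duodenum. Reporter-positive cells were isolated by flow sorting. Sorted cells were selected by a reporter of Neurog3 and WT cells were not described as selected, so that a difference from WT also compares reporter-sorted cells with epithelial cells that the labels do not call sorted. Strain and reporter differed together with allele number between EYFP and EGFP cells, and the 3 cannot be told apart. The labels give no age, sex, sorting gates or gut segment for the sorted cells, and do not say whether replicates were separate animals. P-values therefore measure only the spread between these libraries, which may be technical within the EYFP and EGFP groups. The WT libraries differed in sex, as given below.

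Epithelial cells seal to each other through tight junctions, in which claudins, with occludin, form the barrier or pores between neighbouring cells and the ZO scaffolds tie them to actin. Below lie adherens junctions, held by classical cadherins that bind their like on the next cell, while cadherin-related proteins link the tips of microvilli in the enterocyte brush border. Protocadherins are the largest cadherin subfamily. The clustered ones are encoded by 3 neighbouring gene arrays, alpha, beta and gamma, are best known for giving single neurons a surface identity, and in the alpha and gamma arrays splice a variable first exon to shared constant exons.

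Libraries held 7938358 to 20589683 estimated counts, and the 127 genes took 0.482% to 0.808% of them. Neurog3 stood at 563 and 348 CPM (counts scaled by library size) in EYFP cells, 120 and 179 CPM in EGFP cells, and 6 and 6.39 CPM in WT cells. All 10 enteroendocrine markers rose in both sorted groups, with a summed level of 46700 to 61700 CPM in EYFP cells, 9360 to 13700 CPM in EGFP cells and 517 to 584 CPM in WT cells. Several other marker lists moved with the groups. Beside the list counts that follow, 16.8% of all tested genes were higher and 19.4% lower between EYFP and EGFP cells. Against WT cells, 33.5% were lower in EYFP cells and 21.9% in EGFP cells. Goblet markers summed to 728 to 1860 CPM in EYFP cells, 64900 to 104000 CPM in EGFP cells and 5860 to 8780 CPM in WT cells, and 10 of 10 were lower in EYFP than in EGFP cells. Paneth markers summed to 541 to 911, 14200 to 18400 and 13500 to 20800 CPM in EYFP, EGFP and WT cells, with 9 of 10 lower in EYFP than in EGFP cells. Proliferation genes summed to 268 to 344, 1190 to 1360 and 988 to 1390 CPM in the same order, with 10 of 10 lower in EYFP than in EGFP cells. Enterocyte markers summed to 1770 to 2510, 1840 to 2340 and 29800 to 50400 CPM, with 10 of 10 lower in each sorted group than in WT cells. Immune markers summed to 31.5 to 235, 18.7 to 67.7 and 513 to 576 CPM, with 8 of 11 tested lower in each sorted group. Most of the 235 CPM, in EYFP replicate 1, was the single gene Lyz2. Lyz2 stood at 207 and 0.168 CPM in EYFP cells, 0.482 and 29.3 CPM in EGFP cells and 2.58 and 2.65 CPM in WT cells. Neuron and glia markers summed to 225 to 236, 52.3 to 88.6 and 6.33 to 6.83 CPM, with Sox10, the defining glial factor, at 0 in all libraries, and 3 of 5 tested were higher in EYFP than in EGFP cells. Most of the EYFP sum was Ret (118 and 123 CPM) and Snap25 (93 and 96.5 CPM). Tuft markers summed to 9.44 to 17.4, 143 to 239 and 27.9 to 130 CPM, with 7 of 8 tested lower in EYFP than in EGFP cells, and stem cell markers to 988 to 990, 1650 to 2030 and 1480 to 2160 CPM, with 4 of 10 lower and 1 higher. Stromal and endothelial markers summed to 19.9 to 22, 5.24 to 17 and 2.08 to 28.5 CPM, with 2 of 5 tested higher in EYFP than in EGFP cells. The part of these lists in the results that follow was not tested. Xist, expressed from the silenced X chromosome of females, was at 0.634 and 2.36 CPM in EYFP cells, 966 and 969 CPM in EGFP cells and 1.17 and 726 CPM in WT cells. The Y-linked Ddx3y was at 37.3 and 39.3 CPM in EYFP cells, 0 in EGFP cells and 62.4 and 0.121 CPM in WT cells. Sex and group therefore cannot be told apart between EYFP and EGFP cells. The WT libraries were of different sex, so the spread between them also holds sex. Of the 127 genes 3, Cldn2, Pcdh19 and Pcdh11x, are X-linked.

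In EYFP against EGFP cells, 16 of the 62 tested genes rose and 6 fell at an adjusted p under 0.05 (edgeR's quasi-likelihood test), or 22 in all, where 36.2% of all 13935 tested genes were called, 16.8% higher and 19.4% lower. Clustered protocadherins made up 11 of the 16, and claudins 4 of the 6. Against WT cells, 42 rose and 12 fell in EYFP cells, where 60.6% of all tested genes were called, 27.1% higher and 33.5% lower. In EGFP cells 31 rose and 10 fell against WT cells, where 41.5% of all tested genes were called, 19.6% higher and 21.9% lower. The median log2 fold change of the 62 was 1.06 between EYFP and EGFP cells, 3.28 between EYFP and WT cells and 1.97 between EGFP and WT cells, beside 0.01, -0.12 and 0 over all tested genes. These counts describe the tested genes and are no support for a direction: 38 of the 62 reached the filter's level of 0.829 CPM in both libraries of a sorted group and in fewer than both WT libraries, 28 of them clustered protocadherins. The 3 comparisons share libraries. The 16 genes higher in EYFP than in EGFP cells became 5 without EYFP replicate 1, 6 without EYFP replicate 2, 5 without EGFP replicate 1 and 9 without EGFP replicate 2, and the 6 lower became 3, 3, 3 and 4 without these libraries. Without EGFP replicate 1, 4 genes were lower in EGFP than in WT cells. In these bulk samples, fewer cells of a type and less RNA per cell cannot be told apart.

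**Figure D1:**
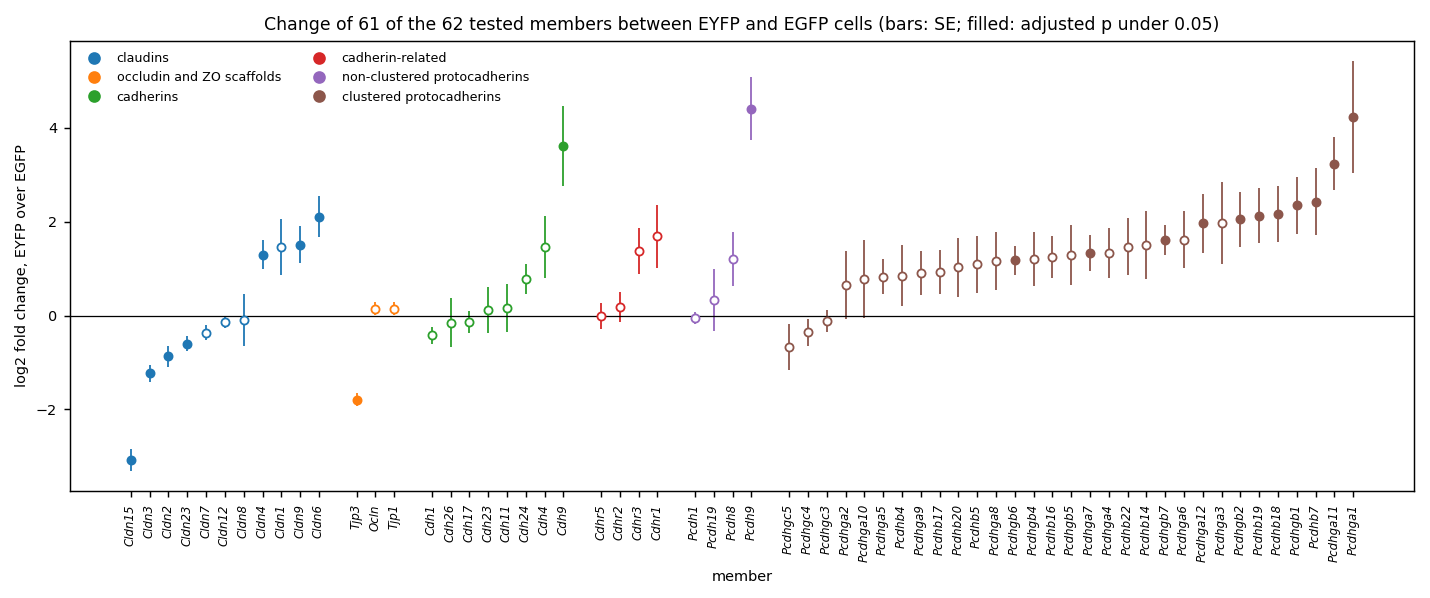
Each point is a tested gene (61 of the 62 are drawn), grouped by family along the horizontal axis, with its log2 fold change of EYFP over EGFP cells on the vertical axis and bars giving the SE; filled points passed an adjusted p of 0.05. Filled points lie above 0 among the clustered protocadherins (11 of 31), and on both sides of 0 among the claudins (3 above and 4 below, of 11).

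The claudins of EYFP and EGFP cells differed in both directions. Cldn4, Cldn6 and Cldn9 rose in EYFP cells, Cldn15, Cldn3, Cldn2 and Cldn23 fell, and 4 of the 11 tested claudins did not pass the test; the median log2 fold change of the 11 was -0.14. The 3 that rose became 1 without EYFP replicate 1 and 0 without EGFP replicate 1, and the 4 that fell became 2 without EYFP replicate 1, EYFP replicate 2 or EGFP replicate 1. Cldn4 and Cldn3 encode sealing claudins and serve as receptors of Clostridium perfringens enterotoxin. Cldn15 and Cldn2 form the sodium-permeable pores of the small intestine, and mice lacking Cldn15 have an enlarged small bowel. Cldn6 marks embryonic epithelia, Cldn9 is needed for hearing in mice, and Cldn23 is a claudin of differentiated gut epithelium.

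The promoters of the claudin of highest level among those that rose (Cldn4), of the one with the largest rise (Cldn6) and of both that fell most (Cldn15 and Cldn3) are shown so that their sequences can be set side by side. Each is the 250 bases before the transcript start in the RefSeq table of GRCm38.p6, the build of mm10, read 5′ to 3′ on the strand of the gene. The windows lie at chr5:134946935-134947184 on the minus strand for Cldn4, chr17:23679115-23679364 on the plus strand for Cldn6, chr5:134985964-134986213 on the plus strand for Cldn3 and chr5:136967619-136967868 on the plus strand for Cldn15. The Cldn6 window reaches past the start of the gene's annotated span at 23679348. A GENCODE transcript start was seen directly after each of the other windows but not after that of Cldn6, so its place relative to the start is uncertain. Capitals mark a match to 1 of 5 short motifs searched on both strands. The E-boxes CAGATG and CACCTG are bound by basic helix-loop-helix factors, and CACCTG also by Snail and Zeb repressors. The others were TATAAA (the TATA box), TTTATG (the core bound by the intestinal factor Cdx2) and CAAAGTCCA (bound by Hnf4a).
Cldn4: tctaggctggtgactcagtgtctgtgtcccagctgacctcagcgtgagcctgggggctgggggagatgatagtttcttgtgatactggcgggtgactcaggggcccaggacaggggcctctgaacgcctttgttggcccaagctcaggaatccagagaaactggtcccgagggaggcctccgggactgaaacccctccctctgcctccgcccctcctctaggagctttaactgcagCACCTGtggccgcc
Cldn6: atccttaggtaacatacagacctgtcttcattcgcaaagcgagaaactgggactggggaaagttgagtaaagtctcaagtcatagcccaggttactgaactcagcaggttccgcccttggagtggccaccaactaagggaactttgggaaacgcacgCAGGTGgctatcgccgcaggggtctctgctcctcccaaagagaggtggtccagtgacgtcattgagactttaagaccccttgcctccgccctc
Cldn3: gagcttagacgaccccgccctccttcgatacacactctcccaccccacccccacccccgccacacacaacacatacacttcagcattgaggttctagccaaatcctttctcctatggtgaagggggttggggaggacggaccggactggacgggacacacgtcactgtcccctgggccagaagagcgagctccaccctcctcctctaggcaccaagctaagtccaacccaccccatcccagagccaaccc
Cldn15: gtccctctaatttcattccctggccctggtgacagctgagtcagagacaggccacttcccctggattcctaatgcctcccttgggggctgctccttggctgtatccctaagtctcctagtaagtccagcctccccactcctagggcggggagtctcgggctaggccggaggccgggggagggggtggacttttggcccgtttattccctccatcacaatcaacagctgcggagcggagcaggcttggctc
The matches found were 1 CACCTG in Cldn4, on the strand of the gene and ending close to the start, and 1 in Cldn6 on the opposite strand, where it reads CAGGTG. Neither the Cldn3 nor the Cldn15 window held any of the 5. Over the 32851 promoters of the table, 17.2% held CACCTG, 14.4% CAGATG, 12.4% TATAAA, 10.8% TTTATG and 0.4% CAAAGTCCA. A match is a description of the sequence, and no match says only that these letters are not in the window. G and C made up 62%, 53.6%, 60.8% and 60.8% of the Cldn4, Cldn6, Cldn3 and Cldn15 windows, beside a median of 52.4% over the table, to which the Cldn6 window was nearest.

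Cldn15 stood at 41.2 and 54.8 CPM in EYFP cells, 395 and 417 CPM in EGFP cells and 622 and 851 CPM in WT cells. All libraries of the 3 groups were apart, lowest in EYFP cells. The log2 fold change was -3.08 ± 0.23 (SE, n = 2 per group) between EYFP and EGFP cells (edgeR adjusted p 0.00023) and -3.94 ± 0.24 between EYFP and WT cells (edgeR adjusted p 1.2e-05). Between EGFP and WT cells it was -0.86 ± 0.22 (edgeR adjusted p 0.015). That call ended without EGFP replicate 1 (-0.71, adjusted p 0.13), EGFP replicate 2 (-0.90, 0.071) or WT replicate 2 (-0.61, 0.053).

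Cldn3 stood at 183 and 189 CPM in EYFP cells, 412 and 458 CPM in EGFP cells and 673 and 523 CPM in WT cells. EYFP cells were lowest in both libraries and no groups overlapped. Its log2 fold change was -1.23 ± 0.18 against EGFP cells (edgeR adjusted p 0.0022) and -1.68 ± 0.18 against WT cells (edgeR adjusted p 0.00015). Between EGFP and WT cells it did not pass the test (-0.46 ± 0.18, edgeR adjusted p 0.077), and passed without WT replicate 2 (-0.63, adjusted p 0.021).

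The neighbour of Cldn3 went the other way. Cldn4 stood at 587 and 480 CPM in EYFP cells, 156 and 278 CPM in EGFP cells and 73.6 and 49.7 CPM in WT cells. The groups formed 3 separate levels with EYFP cells highest, and EGFP replicate 2 was nearest to them. Its log2 fold change was 1.30 ± 0.31 between EYFP and EGFP cells (edgeR adjusted p 0.019), 3.11 ± 0.34 between EYFP and WT cells (edgeR adjusted p 0.00024) and 1.82 ± 0.32 between EGFP and WT cells (edgeR adjusted p 0.004). The call between EYFP and EGFP cells was lost without EYFP replicate 1 (1.14, adjusted p 0.086) and without EGFP replicate 1 (0.99, adjusted p 0.085). Cldn4 (chr5:134945123-134946934) and Cldn3 (chr5:134986214-134987476) are 39279 bases apart, with 0 annotated genes wholly between them.

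Cldn2 stood at 82 and 81 CPM in EYFP cells, 177 and 122 CPM in EGFP cells and 134 and 97.9 CPM in WT cells. Its EYFP libraries lay below all others, while EGFP and WT libraries overlapped. The fall of EYFP against EGFP cells (-0.87 ± 0.22, edgeR adjusted p 0.019) was lost without EYFP replicate 1 (adjusted p 0.085), EYFP replicate 2 (0.086) or EGFP replicate 1 (-0.52, 0.18). The gene lies on the X chromosome, and Xist moved between these groups as given above. Against WT cells neither sorted group passed the test (-0.51, adjusted p 0.078, for EYFP cells and 0.37, adjusted p 0.22, for EGFP cells, edgeR), and EYFP cells passed it without WT replicate 2 (-0.72, adjusted p 0.035).

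Cldn23 stood at 25 and 27.2 CPM in EYFP cells, 38.8 and 40.4 CPM in EGFP cells and 167 and 132 CPM in WT cells. No groups overlapped. It fell against WT cells by 2.52 on the log2 scale in EYFP cells (edgeR adjusted p 1.5e-05) and by 1.91 in EGFP cells (edgeR adjusted p 1e-04). The smaller fall of EYFP against EGFP cells (-0.60 ± 0.16, edgeR adjusted p 0.021) was lost without any 1 of their 4 libraries. Cldn7, a sealing claudin that also sits on the basolateral membrane, stood at 388 and 400 CPM in EYFP cells, 516 and 505 CPM in EGFP cells and 735 and 718 CPM in WT cells. The groups were apart, yet the difference of EYFP from EGFP cells did not pass the test (-0.37 ± 0.16, edgeR adjusted p 0.10). It fell in EYFP against WT cells (-0.88 ± 0.16, edgeR adjusted p 0.002), and in EGFP against WT cells (-0.51 ± 0.16, edgeR adjusted p 0.035), where the call was lost without any 1 of the EYFP or EGFP libraries (adjusted p 0.077 to 0.24).

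A pair of low claudins was near 0 in WT cells. Cldn6 stood at 13.5 and 11.9 CPM in EYFP cells, 1.93 and 3.8 CPM in EGFP cells and 0 and 0.121 CPM in WT cells. Cldn9 stood at 7.05 and 5.64 CPM in EYFP cells, 1.69 and 2.71 CPM in EGFP cells and 0.0833 and 0.0603 CPM in WT cells. Both genes had 3 separate levels with EYFP cells highest. The log2 fold change between EYFP and EGFP cells was 2.11 ± 0.44 for Cldn6 (edgeR adjusted p 0.0088) and 1.51 ± 0.40 for Cldn9 (edgeR adjusted p 0.023). The Cldn6 call was lost without EYFP replicate 1 (adjusted p 0.05) and EGFP replicate 1 (0.055), and its value was 2.70 without EGFP replicate 2; the Cldn9 call was lost without EYFP replicate 1 (0.12), EYFP replicate 2 (0.059) and EGFP replicate 1 (0.11).

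With only 1 to 3 counts in WT cells, these genes are given there as ratios of levels with exact 95% intervals, which cover counting error only. Cldn6 was 182-fold (50 to 1510) higher in EYFP cells and 43.3-fold (11.5 to 366) higher in EGFP cells than in WT cells. Without WT replicate 1 these ratios were 106 and 25.1, without WT replicate 2, which held all its WT counts, the bounds were at least 51-fold and at least 12.1-fold, and without EGFP replicate 2 the EGFP ratio was 27.6. Cldn9 was 91.6-fold (25 to 762) higher in EYFP cells and 32.7-fold (8.55 to 278) higher in EGFP cells. Cldn6 (chr17:23679348-23682446) and Cldn9 (chr17:23682584-23684026) are 137 bases apart, and whether reads of one were counted to the other was not tested.

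Cldn1, the barrier claudin of the epidermis, had no count in WT cells and stood at 2.47 and 6.65 CPM in EYFP cells and 1.69 and 1.61 CPM in EGFP cells. It was at least 41.7-fold higher in EYFP cells and at least 15.6-fold higher in EGFP cells than in WT cells, against a floor of 3 counts over the WT libraries. The bound for EYFP cells was 63.3 when EYFP replicate 1 was left out, 23.5 for EYFP replicate 2, 24.2 for WT replicate 1 and 17.5 for WT replicate 2; the bound for EGFP cells was 9.07 for WT replicate 1 and 6.57 for WT replicate 2. Between EYFP and EGFP cells it did not pass the test (1.46 ± 0.59, edgeR adjusted p 0.098). Cldn12, which unlike most claudins does not bind ZO scaffolds, stood at 61.2 and 63.1 CPM in EYFP cells, 72.8 and 64.7 CPM in EGFP cells and 50 and 52.3 CPM in WT cells. Of the comparisons, only EGFP against WT cells passed (0.43 ± 0.13, edgeR adjusted p 0.034), and not without any 1 of the 6 libraries (0.063 to 0.097). EYFP against WT cells (0.28, edgeR adjusted p 0.10) passed without EGFP replicate 1 (0.44, adjusted p 0.031). Cldn8 stayed under 2 CPM in all libraries and passed in no comparison. The other 12 claudins were untested, 3 of them with no count.

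**Figure D2:**
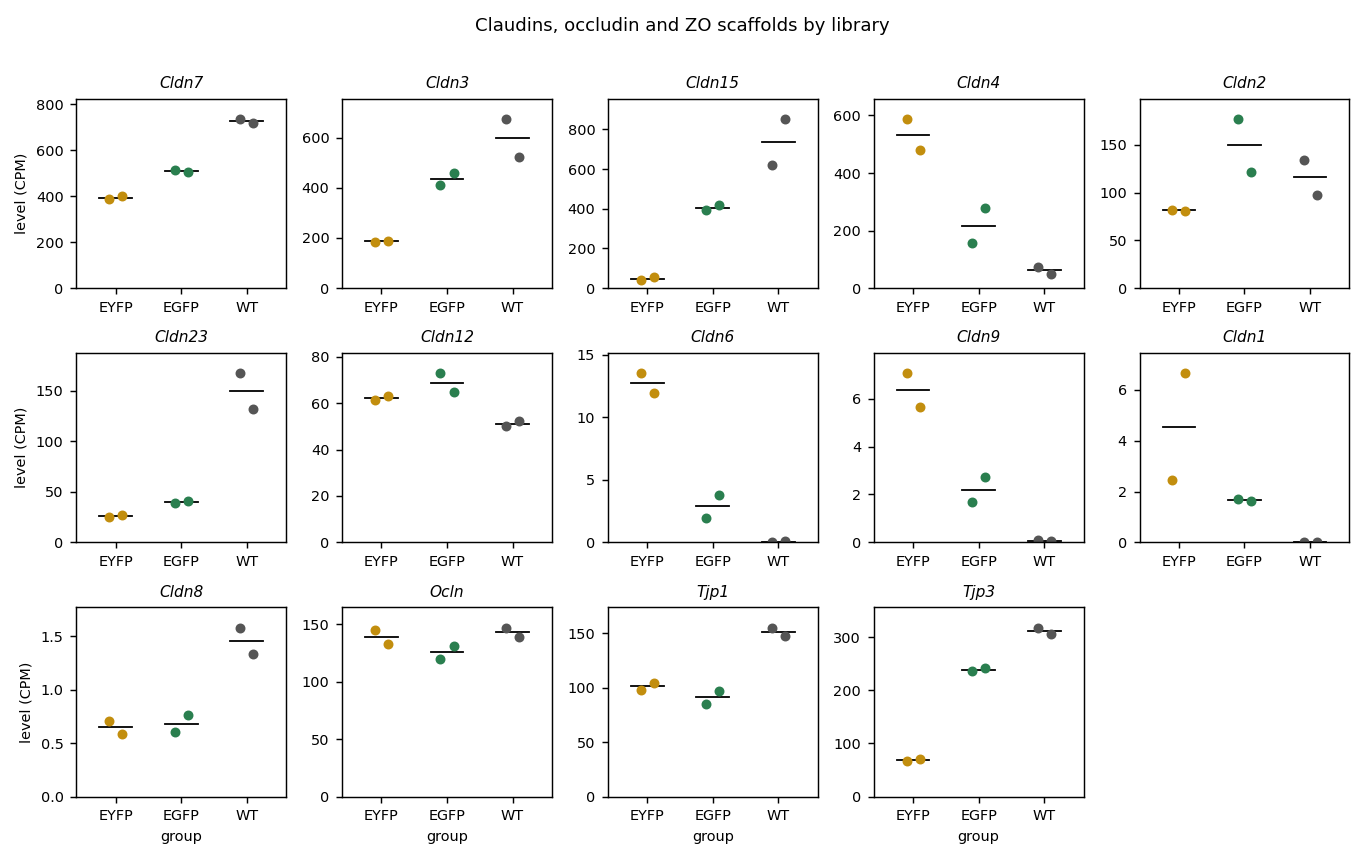
Each panel is 1 gene, with its level in CPM on the vertical axis (each panel has its own scale, starting at 0) for the 2 libraries of EYFP, EGFP and WT cells; points are libraries and lines group means. Cldn15, Cldn3 and Tjp3 are lowest in EYFP cells, Cldn4, Cldn6 and Cldn9 highest, and Ocln lies between 120 and 147 CPM in all 6 libraries.

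Levels of different claudins were compared per length, as CPM per 1000 bases of mean transcript length. In EYFP cells the order was Cldn7 (351), Cldn4 (294) and Cldn3 (148), in EGFP cells Cldn7 (454), Cldn3 (346) and Cldn15 (220), and in WT cells Cldn7 (646), Cldn3 (475) and Cldn15 (398 CPM per 1000 bases). The WT libraries of Cldn3 and Cldn15 overlapped, and no other neighbours among these 3 did in any group. Summed over claudins, the level per length was 908 and 873 in EYFP cells, 1190 and 1280 in EGFP cells and 1710 and 1660 CPM per 1000 bases in WT cells. Cldn7 kept a similar share of this sum, 38% and 40.8% in EYFP cells, 38.6% and 35.2% in EGFP cells and 38.1% and 38.5% in WT cells. Cldn4 held 35.6% and 30.2% in EYFP cells, 7.22% and 12% in EGFP cells and 2.36% and 1.65% in WT cells. Cldn15 held 2.45% and 3.39% in EYFP cells, 18% and 17.7% in EGFP cells and 19.6% and 27.7% in WT cells. Cldn3 held 16% to 17.2% in EYFP cells, below its 27.6% to 28.5% in EGFP cells and 25% to 31.2% in WT cells. The ratio of Cldn4 to Cldn3 per length was 2.22 and 1.76 in EYFP cells, 0.262 and 0.421 in EGFP cells and 0.0758 and 0.066 in WT cells. Among the pore claudins, Cldn2 to Cldn15 was 1.21 and 0.899 in EYFP cells, 0.272 and 0.177 in EGFP cells and 0.131 and 0.0699 in WT cells. Neither ratio overlapped between groups. An exact permutation test of 2 libraries against 2 cannot go below p = 0.33, and the ratios and shares were not tested.

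**Figure D3:**
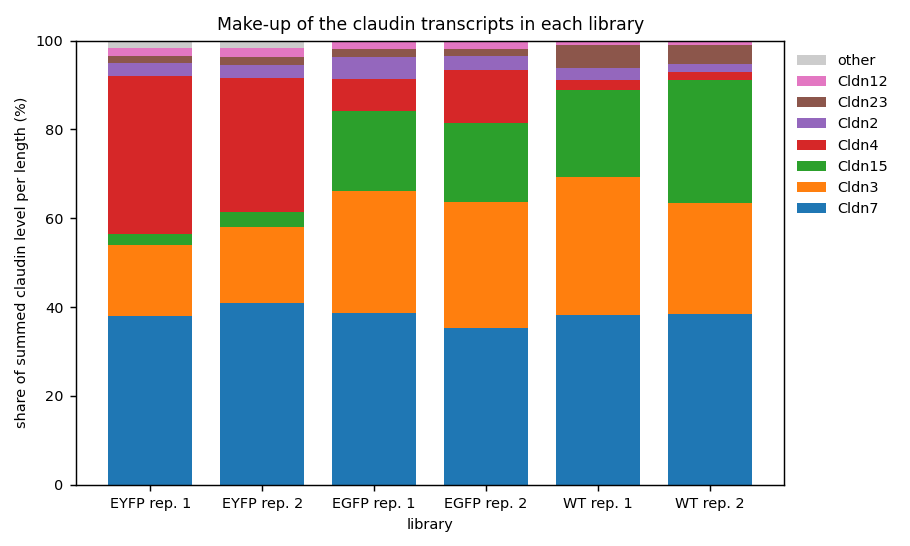
Each bar is 1 library, EYFP, EGFP and WT from left to right, and shows the share of each claudin in the summed claudin level per length (%). The Cldn4 band takes 30.2% to 35.6% in EYFP cells, 7.22% to 12% in EGFP cells and 1.65% to 2.36% in WT cells, while the Cldn7 band stays between 35.2% and 40.8%.

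Among the tight junction proteins beside claudins, Tjp3 fell in EYFP cells, and Ocln and Tjp1 did not pass the test between EYFP and EGFP cells. Tjp3, the ZO scaffold most restricted to epithelia, stood at 67 and 71.1 CPM in EYFP cells, 236 and 242 CPM in EGFP cells and 318 and 306 CPM in WT cells. Its groups were far apart, and the log2 fold change was -1.79 ± 0.14 against EGFP cells (edgeR adjusted p 0.00023) and -2.18 ± 0.14 against WT cells (edgeR adjusted p 1.3e-05). Between EGFP and WT cells the value was small and near the threshold (-0.38 ± 0.13, edgeR adjusted p 0.049), and the call was lost without any 1 of the 6 libraries (adjusted p 0.065 to 0.34). Per length Tjp3 stood at 23.3 CPM per 1000 bases in EYFP cells, below Ocln (34.4), and at 80.7 in EGFP and 105 in WT cells, above Ocln (30.9 and 35.3).

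Tjp1, encoding the founding ZO scaffold, stood at 98.2 and 104 CPM in EYFP cells, 85.3 and 96.7 CPM in EGFP cells and 155 and 147 CPM in WT cells. EYFP libraries lay slightly above EGFP libraries without passing the test, and both groups lay below WT cells, with a log2 fold change of -0.58 ± 0.13 for EYFP cells (edgeR adjusted p 0.0063, 0.054 without EYFP replicate 1) and -0.73 ± 0.13 for EGFP cells (edgeR adjusted p 0.0035, 0.065 without EGFP replicate 1). Ocln, the other sealing protein of the strands, stood at 145 and 133 CPM in EYFP cells, 120 and 131 CPM in EGFP cells and 147 and 139 CPM in WT cells, and passed in no comparison.

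Partners of the tight junction outside the families moved both ways: of 28 fixed by name, 25 were tested, and 6 rose and 8 fell between EYFP and EGFP cells (median log2 fold change -0.07; the 8 became 2 without EYFP replicate 1 or EGFP replicate 1 and 4 without EYFP replicate 2 or EGFP replicate 2), 8 rose and 13 fell between EYFP and WT cells, and 6 rose and 10 fell between EGFP and WT cells (3 to 10 fell without 1 library). Jam3, a junctional adhesion molecule, rose most in EYFP against EGFP cells, at 4.16 and 4.54 CPM in EYFP cells, 1.69 and 0.93 CPM in EGFP cells and 0.0833 and 0.121 CPM in WT cells (1.75 ± 0.46, edgeR adjusted p 0.021, and 0.079 to 0.13 without EYFP replicate 1, EYFP replicate 2 or EGFP replicate 2). Magi1, a membrane-associated scaffold, fell most, at 12.1 and 17.8 CPM in EYFP cells, 36.7 and 37.3 CPM in EGFP cells and 66 and 75.2 CPM in WT cells (-1.31 ± 0.20, edgeR adjusted p 0.0025). Neither gene overlapped between groups. Beside these list counts, 16.8% of all tested genes were higher and 19.4% lower between EYFP and EGFP cells. The shares were 27.1% and 33.5% between EYFP and WT cells, and 19.6% and 21.9% between EGFP and WT cells.

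Neither Cdh1 nor Cdh17, the cadherins of highest level, passed the test between EYFP and EGFP cells with all libraries. Cdh1, encoding E-cadherin of adherens junctions, stood at 742 and 725 CPM in EYFP cells, 983 and 977 CPM in EGFP cells and 968 and 945 CPM in WT cells. EYFP cells were lowest in both libraries. Its difference from EGFP cells missed the threshold (log2 fold change -0.42 ± 0.18, edgeR adjusted p 0.10) and passed it without WT replicate 1 (0.048) or WT replicate 2 (0.043). Against WT cells neither sorted group passed (-0.38, adjusted p 0.093, for EYFP cells and 0.04, adjusted p 0.89, for EGFP cells, edgeR). Cdh17, the liver-intestine cadherin of gut epithelium, stood at 561 and 719 CPM in EYFP cells, 652 and 754 CPM in EGFP cells and 1430 and 1960 CPM in WT cells. Sorted groups overlapped, and both lay below WT cells. It fell against WT cells by 1.40 on the log2 scale in EYFP cells (edgeR adjusted p 0.0016) and by 1.27 in EGFP cells (edgeR adjusted p 0.0043), the EGFP call being lost without EGFP replicate 1 (-1.06, adjusted p 0.066). Per length, Cdh17 stood at 185 and Cdh1 at 166 in EYFP cells, 203 and 221 in EGFP cells, and 489 and 216 CPM per 1000 bases in WT cells. The enterocyte markers given above moved with Cdh17.

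Other cadherins were at most 8.24 CPM, and 1 of the 8 tested cadherins rose between EYFP and EGFP cells. That was Cdh9, a type II cadherin of synapses, at 2.04 and 2.94 CPM in EYFP cells, 0 and 0.338 CPM in EGFP cells and 0.167 and 0.0603 CPM in WT cells. EYFP cells stood apart, and EGFP and WT cells overlapped near 0. It rose by 3.62 ± 0.85 on the log2 scale (edgeR adjusted p 0.014), and the call was lost without EYFP replicate 2 (3.34, adjusted p 0.067) or EGFP replicate 1 (2.90, adjusted p 0.071); without EGFP replicate 2, which held all the EGFP counts, Cdh9 was at least 6.78-fold higher in EYFP cells. Against WT cells it was 23.4-fold (7.65 to 116) higher in EYFP cells as a ratio of levels, 40.7-fold without WT replicate 1 and 14.7-fold without WT replicate 2. Cdh4, or R-cadherin, stood at 2.04 and 2.94 CPM in EYFP cells, 0.362 and 1.35 CPM in EGFP cells and 0 and 0.0603 CPM in WT cells. Between EYFP and EGFP cells it did not pass (1.46 ± 0.66, edgeR adjusted p 0.12). With 1 count in WT cells, the ratio to WT cells was 70.2 (12.2 to 2810) in EYFP cells and 27 (4.29 to 1120) in EGFP cells, 40.7 and 15.7 without WT replicate 1, and at least 9.82-fold and 3.78-fold without WT replicate 2.

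Cdh24, a type II cadherin, stood at 8.03 and 8.24 CPM in EYFP cells, 5.55 and 3.97 CPM in EGFP cells and 3.91 and 2.89 CPM in WT cells. It rose in EYFP against WT cells (1.26 ± 0.32, edgeR adjusted p 0.01), a call lost without WT replicate 2 (1.05, adjusted p 0.053). Cdh26 stood at 0.916 and 1.26 CPM in EYFP cells, 1.33 and 1.1 CPM in EGFP cells and 0.25 and 0.121 CPM in WT cells, and rose against WT cells in both sorted groups. The log2 fold change was 2.54 ± 0.66 in EYFP cells (edgeR adjusted p 0.011), which no longer passed without EYFP replicate 2 (0.061) or WT replicate 2 (0.091), and 2.70 ± 0.66 in EGFP cells (edgeR adjusted p 0.013), which no longer passed without EGFP replicate 1 (0.068), EGFP replicate 2 (0.057) or WT replicate 2 (0.11). Cdh2 (N-cadherin) and Cdh5 (VE-cadherin of blood vessels) stayed under the filter. Cdh5 was at 0.14 and 0.08 CPM in EYFP cells, 0 in EGFP cells and 0 and 0.06 CPM in WT cells. Of the 23 cadherins, 15 were untested and 5 had no count.

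For the adherens and desmosome lists, the shares over all tested genes were 16.8% higher and 19.4% lower between EYFP and EGFP cells. They were 27.1% and 33.5% between EYFP and WT cells, and 19.6% and 21.9% between EGFP and WT cells. Adherens junction partners moved more often down than up. Of 21 fixed by name, 18 were tested, and 1 rose and 9 fell between EYFP and EGFP cells (median -0.45), 2 rose and 12 fell between EYFP and WT cells (-0.93), and 4 rose and 10 fell between EGFP and WT cells (-0.46). Without 1 library, 4 to 9 fell between EYFP and EGFP cells and 5 to 11 between EGFP and WT cells. The gene that rose was Arvcf, a catenin of the p120 family, at 46 and 45.5 CPM in EYFP cells, 21.2 and 23.5 CPM in EGFP cells and 6.41 and 8.74 CPM in WT cells (1.03 ± 0.19 between EYFP and EGFP cells, edgeR adjusted p 0.0053). Ajuba, a LIM-domain protein, fell most (-2.27 ± 0.55, edgeR adjusted p 0.016), at 0.493 and 1.18 CPM in EYFP cells, 4.82 and 3.21 CPM in EGFP cells and 2.33 and 3.56 CPM in WT cells; the fall was larger without EYFP replicate 2 (adjusted p 0.024), and the call was lost without EYFP replicate 1 (-1.75, 0.085) or EGFP replicate 1 (-1.90, 0.1). Among 9 tested desmosome genes of 13, 2 rose and 4 fell between EYFP and EGFP cells, or 0 to 2 and 2 to 5 without 1 library. Dsc2, a desmosomal cadherin, stood at 35.7 and 38.2 CPM in EYFP cells, 140 and 132 CPM in EGFP cells and 218 and 243 CPM in WT cells (-1.88 ± 0.14 between EYFP and EGFP cells, edgeR adjusted p 0.00023), with no overlap of groups. Evpl, the plaque protein envoplakin, rose at 191 and 182 CPM in EYFP cells, 44.5 and 61 CPM in EGFP cells and 48.2 and 102 CPM in WT cells (1.82 ± 0.36, edgeR adjusted p 0.011, and 0.054 without EGFP replicate 1), and its EGFP and WT libraries overlapped.

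Genes known to switch between epithelial and mesenchymal cadherins were also counted. Beside them, 16.8% of all tested genes were higher and 19.4% lower between EYFP and EGFP cells. Of 15 by name, 8 were tested, and 1 rose and 4 fell between EYFP and EGFP cells, or 0 to 1 and 0 to 4 without 1 library. Zeb1, a repressor of Cdh1, rose at 5.85 and 7.91 CPM in EYFP cells, 2.41 and 1.52 CPM in EGFP cells and 1.33 and 1.03 CPM in WT cells (1.82 ± 0.41, edgeR adjusted p 0.012, and 0.072 and 0.073 without EYFP replicate 2 and EGFP replicate 2). Ovol1, which maintains epithelial character, fell most, at 7.68 and 15.3 CPM in EYFP cells, 32.3 and 33.8 CPM in EGFP cells and 126 and 88.5 CPM in WT cells (-1.53 ± 0.33, edgeR adjusted p 0.014, and 0.085 and 0.061 without EGFP replicates 1 and 2). No groups overlapped for either gene. Cdh1 itself did not pass the test between EYFP and EGFP cells with all libraries, and a link to these genes was not tested.

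Cadherin-related genes of the brush border fell in both sorted groups against WT cells. Between EYFP and EGFP cells 0 of the 4 cadherin-related genes passed by edgeR or DESeq2, and 2 were higher at an unadjusted p under 0.05 by edgeR. Cdhr2 and Cdhr5 encode the pair of proteins that bridge microvillar tips. Cdhr2 stood at 341 and 416 CPM in EYFP cells, 283 and 385 CPM in EGFP cells and 1170 and 2170 CPM in WT cells. Cdhr5 stood at 402 and 530 CPM in EYFP cells, 384 and 553 CPM in EGFP cells and 1030 and 1530 CPM in WT cells. Sorted groups overlapped for both genes and lay below both WT libraries. The log2 fold change against WT cells was -2.14 ± 0.33 in EYFP and -2.32 ± 0.33 in EGFP cells for Cdhr2 (edgeR adjusted p 0.00096 and 0.0012), and -1.46 ± 0.28 and -1.45 ± 0.28 for Cdhr5 (edgeR adjusted p 0.0029 and 0.0049). The EGFP call for Cdhr5 was lost without EGFP replicate 1 (-1.10, adjusted p 0.064). A brush border list holds partners of this adhesion complex and also actin-binding genes of microvilli, so it does not describe the complex alone. All 9 of its genes fell in both sorted groups against WT cells, with medians of -1.43 in EYFP and -1.66 in EGFP cells. Nearest to the threshold were Ush1c in EYFP cells (-0.59 ± 0.22, edgeR adjusted p 0.049) and Calml4 in EGFP cells (-0.81 ± 0.26, edgeR adjusted p 0.041). The Ush1c value was -0.32 without WT replicate 2, and that of Calml4 was -0.40 without EGFP replicate 1. Over all tested genes, 33.5% were lower in EYFP and 21.9% in EGFP cells against WT cells. The enterocyte markers, which share Vil1 with the list, fell with it. Pls1, an actin bundler, fell most, at 76.2 and 88.1 CPM in EYFP cells, 147 and 176 CPM in EGFP cells and 888 and 1210 CPM in WT cells. In EYFP against EGFP cells, Anks4b, a scaffold of the complex, rose (0.84 ± 0.18, edgeR adjusted p 0.0097, lost without EYFP replicate 2 or EGFP replicate 1), Pls1 fell (-0.98 ± 0.21, edgeR adjusted p 0.01, lost without EYFP replicate 1 or EGFP replicate 2) and the other 7 did not pass.

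The other cadherin-related genes were low. Cdhr3, known in humans as a rhinovirus receptor of ciliated airway cells, stood at 2.54 and 2.52 CPM in EYFP cells, 1.21 and 0.761 CPM in EGFP cells and 0.0833 and 0.121 CPM in WT cells. The difference between EYFP and EGFP cells did not pass (1.38 ± 0.49, edgeR adjusted p 0.059). Against WT cells it was 24.1-fold (7.9 to 120) higher in EYFP cells and 9-fold (2.65 to 47.5) higher in EGFP cells as a ratio of levels. Cdhr1, a photoreceptor cadherin, stood at 1.34 and 1.26 CPM in EYFP cells, 0.362 and 0.423 CPM in EGFP cells and 0.0833 and 0.362 CPM in WT cells. It rose in EYFP against WT cells (2.40 ± 0.68, edgeR adjusted p 0.016), a call lost without EYFP replicate 1 (2.36, adjusted p 0.07), EYFP replicate 2 (2.44, 0.057) or WT replicate 1 (1.81, 0.099), with 3.80 without WT replicate 2.

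**Figure D4:**
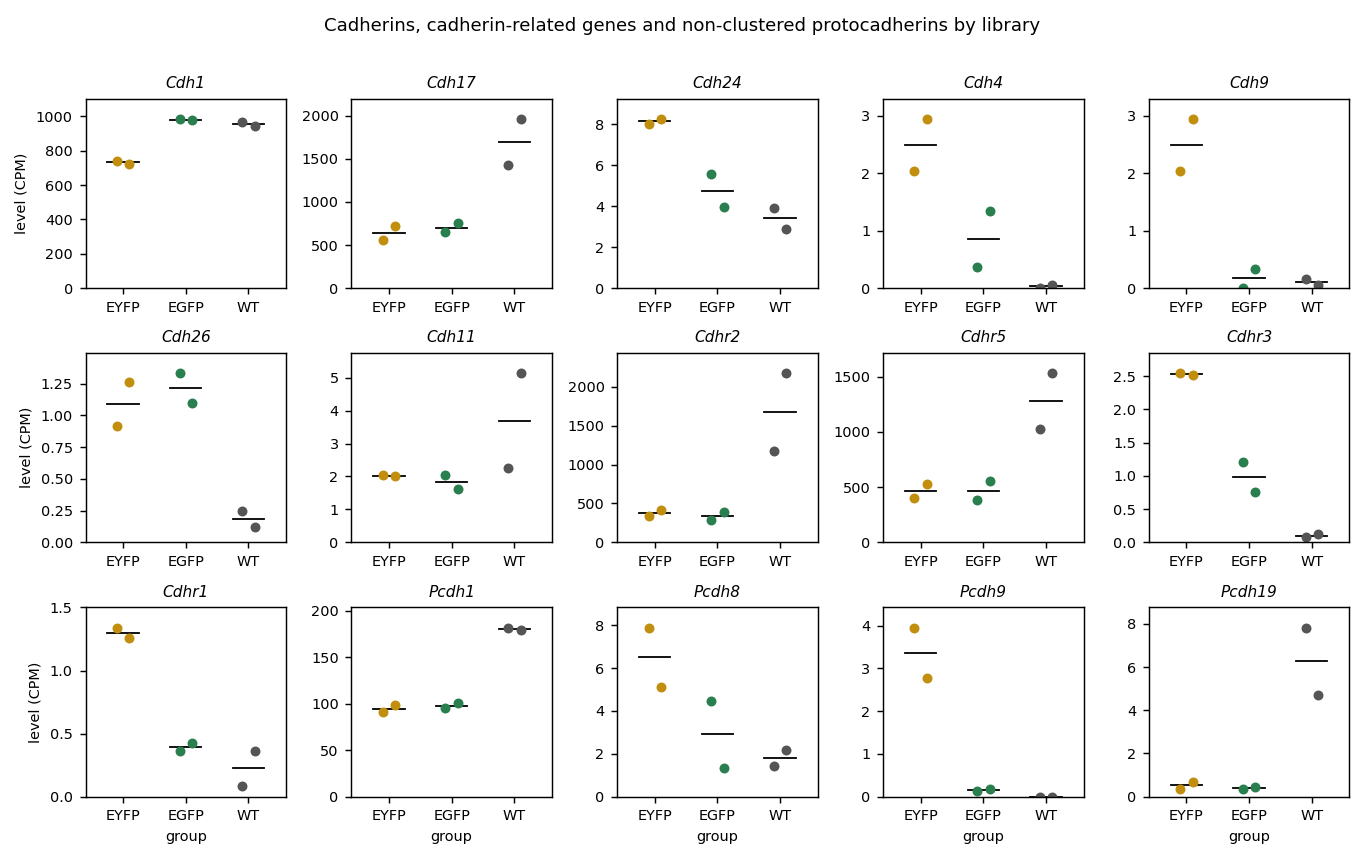
Each panel is 1 cadherin, cadherin-related gene or non-clustered protocadherin, with its level in CPM on the vertical axis (own scale in each panel, starting at 0) for the 2 libraries of EYFP, EGFP and WT cells; points are libraries and lines group means. Cdh17, Cdhr2, Cdhr5, Pcdh1 and Pcdh19 are highest in WT cells, and Cdh9 and Pcdh9 are above 2 CPM in both EYFP libraries and under 1 CPM in all others.

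Of the 12 non-clustered protocadherins, 4 were tested. Pcdh9, known from neurons, stood at 3.95 and 2.78 CPM in EYFP cells, 0.121 and 0.169 CPM in EGFP cells and 0 in both WT libraries. EYFP cells stood far above both other groups. The fitted log2 fold change between EYFP and EGFP cells passed the test (edgeR adjusted p 0.0034), and since EGFP cells held 1 to 3 counts its size is given as a ratio of levels of 22.9 (7.58 to 113), which was 18.6 to 28.3 without 1 of the 4 libraries. Against WT cells it was at least 32.5-fold higher in EYFP cells, 18.9-fold without WT replicate 1 and 13.7-fold without WT replicate 2. Pcdh8, first known from brain and paraxial mesoderm, stood at 7.89 and 5.13 CPM in EYFP cells, 4.46 and 1.35 CPM in EGFP cells and 1.42 and 2.17 CPM in WT cells. EGFP cells overlapped with WT cells. It did not pass between EYFP and EGFP cells (1.20 ± 0.57, edgeR adjusted p 0.14) and passed without EGFP replicate 1 (2.31, adjusted p 0.04), while the rise of EYFP against WT cells (1.84 ± 0.57, edgeR adjusted p 0.024) was lost without EYFP replicate 1 (1.50, 0.12), WT replicate 1 (1.58, 0.11) or WT replicate 2 (2.19, 0.057).

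Pcdh1, a broadly expressed epithelial protocadherin, stood at 91 and 98.5 CPM in EYFP cells, 95 and 101 CPM in EGFP cells and 182 and 180 CPM in WT cells. Sorted groups overlapped, and both were lower than WT cells (-0.94 ± 0.13 in EYFP cells, edgeR adjusted p 0.00047, and -0.89 ± 0.13 in EGFP cells, edgeR adjusted p 0.0012). The X-linked Pcdh19, mutated in a human epilepsy of girls, stood at 0.352 and 0.673 CPM in EYFP cells, 0.362 and 0.423 CPM in EGFP cells and 7.83 and 4.7 CPM in WT cells. It fell against WT cells by 3.60 on the log2 scale in EYFP cells (edgeR adjusted p 0.00063), with -3.94 in EGFP cells (edgeR adjusted p 0.001), and the sorted groups overlapped.

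Clustered protocadherins were low one by one, and those that changed rose in the sorted cells. Of 61, 31 were tested and 4 had no count. In EYFP against EGFP cells 11 of the 31 rose and 0 fell (median log2 fold change 1.30), and 2, 3, 3 and 4 rose without EYFP replicate 1, EYFP replicate 2, EGFP replicate 1 and EGFP replicate 2. Against WT cells 30 rose in EYFP cells (4.25) and 23 rose in EGFP cells (3.13), and 0 fell in either. None of the 31 was lower at an unadjusted p under 0.05 in any comparison by edgeR, and DESeq2 called 0 lower. All 31 reached the filter's level in both EYFP libraries, 17 in both EGFP libraries and 3 in both WT libraries, so these counts are not independent of the filter. Reads of the constant exons and of near-identical copies cannot be given to 1 gene with certainty, and values of single clustered genes are therefore uncertain. Of the 61, 60 have a position in the annotation, all on chromosome 18. The sums over each cluster, which do not depend on how reads were divided within it, are given first.

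The beta cluster, whose genes have a single large exon and no constant part, summed over 22 genes to 30.2 and 22.8 CPM in EYFP cells, 11.6 and 11.8 CPM in EGFP cells and 0.416 and 0.723 CPM in WT cells. No groups overlapped. The log2 fold change was 1.18 between EYFP and EGFP cells (edgeR adjusted p 0.0086, lost without EYFP replicate 1 at 0.96 and 0.077), 5.47 between EYFP and WT cells (edgeR adjusted p 1.1e-05) and 4.29 between EGFP and WT cells (edgeR adjusted p 7.1e-05). The gamma cluster, the highest of the 3, summed over 22 genes to 194 and 150 CPM in EYFP cells, 97.4 and 124 CPM in EGFP cells and 18 and 15.7 CPM in WT cells. Its log2 fold change was 0.64 between EYFP and EGFP cells (edgeR adjusted p 0.029), lost without EYFP replicate 1 (0.44, adjusted p 0.18) and EGFP replicate 1 (0.53, 0.15), and 3.35 and 2.72 in EYFP and EGFP cells against WT cells. The alpha cluster summed over 17 gene entries to 2.96 and 5.05 CPM in EYFP cells, 1.09 and 0.761 CPM in EGFP cells and 0 and 0.12 CPM in WT cells. It rose by a log2 fold change of 2.12 between EYFP and EGFP cells (edgeR adjusted p 0.026), lost without EYFP replicate 2 (1.69, 0.15), EGFP replicate 1 (2.44, 0.098) or EGFP replicate 2 (1.87, 0.14). Of the 17 entries 3 (Pcdha4-g, Pcdha6-g and Pcdha7-g) are annotated through the gamma cluster; they held 8 counts in each EYFP library and 0 in the others, and without them, an alternative chosen after seeing the data, the log2 fold change was 1.88 (edgeR adjusted p 0.046). With 1 to 3 counts in WT cells its ratio of levels to WT cells was 55.9 (15.1 to 468) in EYFP cells and 12.8 (3.06 to 114) in EGFP cells, 32.4 and 7.42 without WT replicate 1, and at least 15.7-fold and 3.58-fold without WT replicate 2. Its call in EGFP against WT cells (edgeR adjusted p 0.016) was lost without EGFP replicate 1 (0.065) or WT replicate 1 (0.054).

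The gamma cluster was divided further, after the data were seen, into the variable genes of A and B type and the 3 C-type genes. A-type genes summed to 71.1 and 59.5 CPM in EYFP cells, 24.1 and 27.6 CPM in EGFP cells and 5.83 and 2.11 CPM in WT cells. B-type genes summed to 54.5 and 43.1 CPM in EYFP cells, 16.6 and 19.1 CPM in EGFP cells and 3.41 and 5.24 CPM in WT cells. C-type genes summed to 68.4 and 47.5 CPM in EYFP cells, 56.7 and 76.9 CPM in EGFP cells and 8.74 and 8.38 CPM in WT cells. EYFP and EGFP cells were apart for A and B types and overlapped for the C type. The log2 fold change of EYFP over EGFP cells was 1.45 for the B type (edgeR adjusted p 0.003), 1.33 for the A type (edgeR adjusted p 0.031, lost without any 1 of the 4 libraries at 0.079 to 0.17) and -0.21 for the C type (edgeR adjusted p 0.49), the last with a sign that turned to 0.03 without EYFP replicate 2 or EGFP replicate 2. Against WT cells the values in EYFP cells were 4.08, 3.48 and 2.76 for A, B and C types, and in EGFP cells 2.75, 2.03 and 2.97; the A-type values were 4.94 and 3.61 without WT replicate 1 and 3.48 and 2.15 without WT replicate 2. C-type genes took 35.3% (33.5 to 37.1) and 31.6% (29.5 to 33.8) of the gamma counts in EYFP cells, 58.2% (54.7 to 61.5) and 62.2% (59.7 to 64.7) in EGFP cells and 48.6% (42 to 55.2) and 53.3% (47.2 to 59.2) in WT cells, with Wilson intervals of 95% that cover counting error only. The C-type shares of the 3 groups did not overlap, but the intervals of both WT replicates overlapped with that of EGFP replicate 1. A-type shares were 36.7% and 39.7% in EYFP cells, 24.8% and 22.4% in EGFP cells and 32.4% and 13.4% in WT cells, and B-type shares 28.1% and 28.7%, 17.1% and 15.4%, and 19% and 33.3% in the same order. WT libraries lay on both sides of EGFP cells for the A type and of EYFP cells for the B type. Genes of the 3 types share the constant exons, so sums and shares by type depend on how reads were divided between them. The intervals leave this out. The difference between types was not tested.

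**Figure D5:**
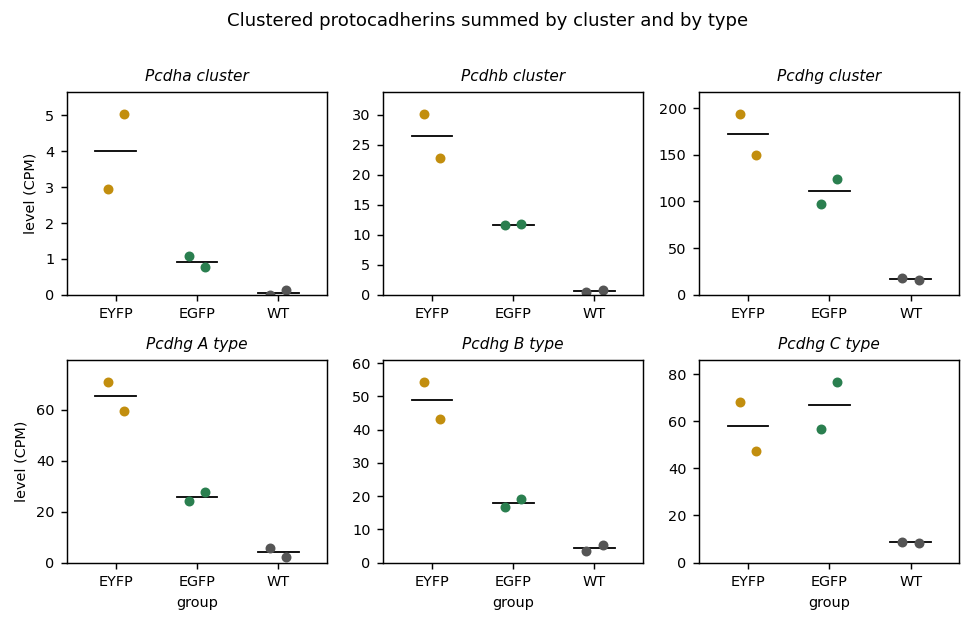
Summed levels in CPM (vertical axes, own scale in each panel, starting at 0) of the alpha, beta and gamma clusters and of the A, B and C types of the gamma cluster in the 2 libraries of EYFP, EGFP and WT cells; points are libraries and lines group means. All sums are lowest in WT cells, and the C type is the only one whose EYFP and EGFP libraries overlap.

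The highest single clustered genes were Pcdhgc3, Pcdhgc4 and Pcdhgb6. Pcdhgc3 stood at 48.5 and 31 CPM in EYFP cells, 39.2 and 47.4 CPM in EGFP cells and 5.91 and 5.31 CPM in WT cells, and rose against WT cells by 2.83 ± 0.26 in EYFP and 2.95 ± 0.26 in EGFP cells (edgeR adjusted p 6.1e-05 and 0.00013). Pcdhgc4, needed in mice for the survival of some interneurons, stood at 18.6 and 15.1 CPM in EYFP cells, 16 and 27.1 CPM in EGFP cells and 2.25 and 2.65 CPM in WT cells. Neither C-type gene passed between EYFP and EGFP cells, and their libraries overlapped there. Pcdhgb6 stood at 26.5 and 15.8 CPM in EYFP cells, 8.44 and 10.2 CPM in EGFP cells and 2.25 and 3.32 CPM in WT cells, and rose in EYFP against EGFP cells (1.18 ± 0.31, edgeR adjusted p 0.022), a call lost without EYFP replicate 1 (0.76, 0.17), EGFP replicate 1 (1.10, 0.11) or EGFP replicate 2 (1.32, 0.064).

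Of the clustered genes with the largest rises in EYFP against EGFP cells, Pcdhga11 stood at 6.34 and 5.55 CPM in EYFP cells, 0.241 and 0.93 CPM in EGFP cells and 0.333 and 0.241 CPM in WT cells. EGFP and WT cells overlapped, and the log2 fold change between EYFP and EGFP cells was 3.24 ± 0.57 (edgeR adjusted p 0.0043), or 4.56 without EGFP replicate 2. Pcdhga1 stood at 1.76 and 2.27 CPM in EYFP cells, 0 and 0.169 CPM in EGFP cells and 0.416 and 0 CPM in WT cells, a ratio of levels between EYFP and EGFP cells of 20.1 (5.28 to 170). That ratio was 11.8 without EGFP replicate 1 and at least 5.51-fold without EGFP replicate 2, and its call (edgeR adjusted p 0.028) was lost without any 1 of the 4 libraries. Pcdhgb1 stood at 5.36 and 5.97 CPM in EYFP cells, 0.603 and 1.52 CPM in EGFP cells and 0 and 0.181 CPM in WT cells (2.35 ± 0.61, edgeR adjusted p 0.02), lost without EYFP replicate 1 (0.066), EYFP replicate 2 (0.078) or EGFP replicate 1 (1.94, 0.11), and 3.21 without EGFP replicate 2. Pcdhb7 stood at 1.62 and 1.18 CPM in EYFP cells, 0.362 and 0.169 CPM in EGFP cells and 0 in both WT libraries (2.43 ± 0.71, edgeR adjusted p 0.037), lost without any 1 of the 4 libraries (adjusted p 0.096 to 0.23), with 3.04 without EGFP replicate 1.

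Against WT cells, the largest fitted rises of clustered genes in EYFP cells were in genes with no WT count. Their size can be given only as a bound. Some genes with 1 to 3 WT counts had large ratios of levels to WT cells. Pcdhb19 was at 57 (9.79 to 2290) and Pcdhgb1 at 53.7 (18 to 264) in EYFP cells. Such ratios and bounds cannot be ranked against each other. Pcdhb18 was at least 17.5-fold, Pcdhga8 at least 16.4-fold, Pcdhb7 at least 13.5-fold and Pcdhb14 at least 12.8-fold higher in EYFP than in WT cells, at 1.01 to 2.26 CPM in EYFP libraries. Without WT replicate 1 these bounds were 10.2, 9.54, 7.84 and 7.42, without WT replicate 2 they were 7.37, 6.91, 5.68 and 5.37, and without EYFP replicate 1 that of Pcdhga8 was 10.4. In EGFP cells the leading genes by size were Pcdhga4 (1.81 and 1.27 CPM in EGFP cells, 0 and 0.121 CPM in WT cells), Pcdhb16 (1.21 and 1.1 CPM in EGFP cells, 0.0833 and 0.0603 CPM in WT cells), Pcdhga6 (2.05 and 3.38 CPM in EGFP cells, 0.416 and 0 CPM in WT cells) and Pcdhb17 (1.57 and 2.96 CPM in EGFP cells, 0.0833 and 0.241 CPM in WT cells). Their edgeR adjusted p against WT cells was 0.0044, 0.0031, 0.0099 and 0.0028, and that of Pcdhga6 was 0.058 without EGFP replicate 2. Their WT levels rest on few counts, and no fold is drawn from them.

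Genes known to govern promoter choice in the clusters, such as the insulator protein Ctcf and the methyltransferase Dnmt3b, were counted as well. In EYFP against EGFP cells 0 of 6 passed edgeR's test (median log2 fold change 0.11), where 1 was higher at an unadjusted p under 0.05 and DESeq2 called 1 higher, and 1 of 6, Dnmt3b, rose against WT cells in EYFP cells (1.04 ± 0.28, edgeR adjusted p 0.014, lost without EYFP replicate 2 or WT replicate 2) and in EGFP cells (0.85 ± 0.28, edgeR adjusted p 0.045, lost without any 1 of the 6 libraries). Among other members of the cadherin superfamily, 9 of 12 were tested, and 5 rose and 2 fell between EYFP and EGFP cells, 7 rose and 2 fell between EYFP and WT cells, and 5 rose and 1 fell between EGFP and WT cells; the 5 that rose between EYFP and EGFP cells became 2 without EYFP replicate 1, EGFP replicate 1 or EGFP replicate 2. Over all tested genes, 16.8% were higher and 19.4% lower between EYFP and EGFP cells. The shares were 27.1% and 33.5% between EYFP and WT cells, and 19.6% and 21.9% between EGFP and WT cells. The list holds Ret, which is also in the neuron and glia list, so the 2 lists are not separate observations. Ret was among those that rose between EYFP and EGFP cells (1.69 ± 0.25, edgeR adjusted p 0.0025). Celsr3, a cadherin of axon guidance, stood at 135 and 150 CPM in EYFP cells, 33 and 40.8 CPM in EGFP cells and 4.25 and 5.79 CPM in WT cells. Its 3 levels were separate, and it rose by 1.95 ± 0.18 between EYFP and EGFP cells (edgeR adjusted p 0.00045), 4.82 ± 0.21 between EYFP and WT cells (edgeR adjusted p 4.1e-06) and 2.87 ± 0.20 between EGFP and WT cells (edgeR adjusted p 5.4e-05). Celsr1, its planar polarity relative, was highest in EGFP cells, at 20.7 and 22.8 CPM in EYFP cells, 51.5 and 37.3 CPM in EGFP cells and 11.6 and 7.48 CPM in WT cells (-1.03 ± 0.25 between EYFP and EGFP cells, edgeR adjusted p 0.016, lost without EYFP replicate 1, EYFP replicate 2 or EGFP replicate 1). The giant cadherin Fat4 stood at 5.36 and 7.15 CPM in EYFP cells, 1.57 and 2.79 CPM in EGFP cells and 0.0833 and 0 CPM in WT cells, with no overlap of groups. Its relative Fat1 stood at 315 and 282 CPM in EYFP cells, 179 and 176 CPM in EGFP cells and 381 and 464 CPM in WT cells, lowest in EGFP cells and without overlap.

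Against WT cells, the partner genes with the largest called changes differed by list. Among adherens partners they were Arvcf (2.59 ± 0.20) and the actin cross-linker Actn4 (-2.28 ± 0.19) in EYFP cells, and the nectins Pvrl4 (1.71 ± 0.43, lost without EGFP replicate 1, WT replicate 1 or WT replicate 2) and Pvrl3 (-1.41 ± 0.14) in EGFP cells. Among tight junction partners, Magi1 fell most in EYFP cells (-2.24 ± 0.20) and the polarity gene Pard6b in EGFP cells (-2.02 ± 0.35, or -1.39 without WT replicate 1 and adjusted p 0.055 without EGFP replicate 1). The scaffold gene Magi2 led the rises of both sorted groups, at 1.76 and 3.03 CPM in EYFP cells, 0.241 and 0.93 CPM in EGFP cells and 0 and 0.0603 CPM in WT cells, and its EGFP call was lost without EYFP replicate 2, EGFP replicate 2, WT replicate 1 or WT replicate 2. Desmosome genes were led in EYFP cells by the periplakin gene Ppl (1.63 ± 0.25) and Dsc2 (-2.64 ± 0.14), and in EGFP cells by the plakophilin genes Pkp1 (0.82 ± 0.17) and Pkp3 (-0.91 ± 0.17). Ovol1 fell most among epithelial regulators in EYFP cells (-3.23 ± 0.34) and in EGFP cells (-1.70 ± 0.32, lost without EGFP replicate 1), while Zeb1 rose in EYFP cells (2.54 ± 0.42) and the splicing regulator Esrp2 in EGFP cells (0.88 ± 0.14). In the cadherin superfamily list, Fat4 led the rises of both groups on few WT counts, and the falls were led by Clstn1, a calsyntenin, in EYFP cells (-0.80 ± 0.17) and by Fat1 in EGFP cells (-1.25 ± 0.17). In the comparison named, the edgeR adjusted p of each of these changes was at most 0.033.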

How the data were processed

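Libraries were assigned to the 3 groups of 2 by the genotype in the labels. Reads were single-end and came from TruSeq libraries, per the labels' protocols. The submitters' processing notes name FastQC 0.11.8, Bowtie2, RSEM 1.3.1 and DESeq2 1.26.0, with the mm10 build; settings and strand handling are not given there. The authors deposited estimated counts per gene, in which reads matching several genes are divided, so antisense, overlapping and near-identical genes cannot be fully told apart. The table of the authors' own comparisons was not used.

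Estimated counts were rounded to whole numbers. The filter filterByExpr (minimum count 10, about 0.829 CPM) kept 13935 genes (58.4%). TMM-scaled counts were tested in edgeR 4.0.16 (R 4.3.3) with the robust quasi-likelihood F test, using 1 model of 3 group means over all 6 libraries, 3 residual degrees of freedom and p-values adjusted over all tested genes (Benjamini-Hochberg, 0.05). Variation between replicates was 19.8% (biological coefficient of variation). Each SE follows from the fold change and its F value. CPM divide counts by the TMM-scaled library total, and per-length levels divide CPM by the mean GENCODE transcript length, found for 125 of the 127 genes. Coordinates and promoters came from RefSeq (GRCm38.p6). Where all libraries of a group were at 0, a floor of 3 counts for that group gave the bound; where a group had 1 to 3 counts, the ratio of levels has an exact interval (Clopper-Pearson, 95%). The scripts were tested on simulated data with 200 changed genes. Alternatives were DESeq2 1.42.0, other scalings and filters, 4 libraries, a replicate block, summed clusters and leaving out each library.

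In each family and comparison, up to 4 genes per direction with the largest called change and at least 1 CPM in both libraries of the higher group were named, with the 3 of highest level and a fixed set of junction genes; genes given beyond this were chosen after their values were seen. Of each partner list, the largest called change per direction was named. The genes followed, the lists and the rule were chosen with earlier results of these data known. Replicates of a group differed by more than sampling noise (chi-square per degree of freedom 28.4 to 81.7), so none was counted as a duplicate. The values of 1 gene among the 127 are not reported here, although counts over the families include it.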

Additional observations from a re-analysis of the deposited data

How the results depend on the processing

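Between EYFP and EGFP cells the 16 genes higher became 5 to 17 and the 6 lower 3 to 7 when 1 library was left out. In EGFP against WT cells the 10 lower became 4 to 10. With each cluster summed to 1 gene, 8, 15 and 11 genes were higher between EYFP and EGFP, EYFP and WT, and EGFP and WT cells, against 16, 42 and 31, since fewer genes were tested. Leaving out 1 library gave the summed alpha cluster 1.69 to 2.46, beta 0.96 to 1.36 and gamma 0.44 to 0.82 between EYFP and EGFP cells, and alpha 2.82 to 6.42 between EGFP and WT cells. The C type of the gamma cluster ranged over -0.49 to 0.03. With DESeq2's size factors in edgeR, counts of genes higher and lower were 17 and 6, 43 and 12, and 32 and 9; with DESeq2's Wald test they were 13 and 8, 51 and 13, and 33 and 10; with only the 4 libraries compared, 20 and 8, 46 and 12, and 21 and 8; without a filter, 15 and 6, 56 and 12, and 36 and 9. Calls that changed with these settings were Cdh1 and Cldn7 (EYFP against EGFP, gained with the Wald test and with 4 libraries), Cdh1 (EYFP against WT, gained with the Wald test), Cdhr3 (EYFP against EGFP, gained with DESeq2's size factors and a stricter filter), Pcdhb7 (EYFP against EGFP, lost without a filter and with the Wald test), Cldn7 (EGFP against WT, lost with 4 libraries) and Tjp3 (EGFP against WT, lost with DESeq2's size factors, no filter, a stricter filter and 4 libraries); the cause was not tested. DESeq2's size factors moved the median over all genes by 0.11 between EYFP and WT cells, and the calls of all genes were then 4173 higher and 4183 lower, against 3778 and 4668. Replicate numbers are shared by the groups but did not pair the libraries: differences between replicates correlated at 0.06, 0.02 and 0.13 across groups. With the replicate block the counts were 15 and 6, 42 and 13, and 30 and 10, and Cldn2 fell between EYFP and WT cells (-0.48, edgeR adjusted p 0.032). Depth limits genes under 1 CPM, which rest on few counts in the smallest library.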
